A study of Mus musculus with 14 samples.

Results

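The transcripts of the mitochondrial genome were followed in left ventricles of WT mice and of HCN4F mice, a knock-in line in which a tyrosine of the pacemaker channel HCN4 is exchanged for phenylalanine. They are the rows of the count table whose gene symbol begins with mt-, and 35 of the 49315 genes in the table met this rule: 13 protein-coding genes and 22 tRNA genes. The 2 rRNA genes of the mitochondrial genome were not analysed here. Male mice were operated at an age of 10 to 12 weeks, with either Sham surgery or transverse aortic constriction (TAC), a banding of the aorta that loads the left ventricle with pressure, and hearts were taken 5 weeks later. The groups were WT-Sham (n = 4), WT-TAC (n = 2), HCN4F-Sham (n = 4) and HCN4F-TAC (n = 4), each library being 1 biological replicate of whole left ventricular tissue. The exchange sits in the Hcn4 gene itself and is not limited to the heart by a promoter, all mice had had surgery, and all RNA had been selected for poly(A) tails before sequencing.

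Mitochondria keep a small circular genome that is transcribed from both strands into long precursors. These are cut at the tRNA genes, which lie between the mRNA genes like punctuation, and most of the mRNAs then receive short poly(A) tails. The mRNAs encode core subunits of the respiratory chain, namely of complex I (NADH dehydrogenase, 7 genes), complex III (cytochrome b, 1 gene), complex IV (cytochrome c oxidase, 3 genes) and complex V (ATP synthase, 2 genes). All other subunits, complex II as a whole and the proteins that copy and read the mitochondrial genome are encoded in the nucleus. Heart muscle is among the tissues richest in mitochondria. Mature tRNAs carry no poly(A) tail, so that counts on the tRNA genes of poly(A)-selected RNA are a small and indirect readout, and counts per gene do not tell a mature tRNA from an uncut precursor.

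How far these rows can be read depends on where each gene lies. Nuclear genomes hold copies of mitochondrial DNA. In GRCm38, the build named in the labels, a run of such copies lies on chromosome 1 (chr1:24611535-24616188, minus strand), here called the block. Its outermost aligned bases match positions 6390 and 11042 of the mitochondrial genome. The chromosome 1 sequence between the copies was not compared, so that mt-Atp8 and 5 tRNA genes count as inside the block by position. Within the block the annotation (GENCODE M21) lists 7 unprocessed pseudogenes, which match mt-Co1, mt-Co2, mt-Atp6, mt-Co3, mt-Nd3, mt-Nd4l and mt-Nd4 in this order. Of these pairs, 5 were identical over the whole aligned length of 294 to 876 bases, and the other 2 differed at 1 base. The start of mt-Nd3 (complex I) is shown beside its nuclear counterpart Gm28438 because this pair gave the widest gap in counts; the stretches are chrM:9459-9558, plus strand, and chr1:24613020-24613119, minus strand, and the capital marks the only difference in the 345 aligned bases (mitochondrial position 9461).

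mt-Nd3: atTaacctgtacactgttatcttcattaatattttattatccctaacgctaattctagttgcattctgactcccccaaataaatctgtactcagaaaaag
Gm28438: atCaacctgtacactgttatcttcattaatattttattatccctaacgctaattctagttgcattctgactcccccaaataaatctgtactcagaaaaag

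Among annotated transcripts, the best nuclear matches of the mRNA genes outside the block were less alike over their aligned length. For contrast, mt-Cytb (chrM:14146-14245, plus strand) is shown beside its best nuclear match Gm11410 (chr4:80003990-80004089, plus strand), with the 5 differences in these 100 bases in capitals; over the 1142 aligned bases the identity was 92.91%.

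mt-Cytb: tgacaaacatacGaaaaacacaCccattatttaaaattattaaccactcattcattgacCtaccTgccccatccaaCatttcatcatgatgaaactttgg
Gm11410: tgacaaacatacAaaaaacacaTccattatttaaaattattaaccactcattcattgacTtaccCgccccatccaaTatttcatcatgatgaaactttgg

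The levels of the mRNA genes fell into separate ranges along this border. Levels are given as CPM, counts per 1000000 counts after TMM scaling, and for comparisons between genes as CPM per kilobase of gene. The 5 mRNA genes outside the block had mean levels of 9561 (mt-Nd5) to 31880 (mt-Cytb) CPM per kilobase over the 14 libraries. The 2 genes that lie partly inside it, mt-Nd4 with 63.6% and mt-Co1 with 31.3% of their length, were at 9651 and 51540 CPM per kilobase. The 6 genes that lie fully inside it, mt-Co2, mt-Atp8, mt-Atp6, mt-Co3, mt-Nd3 and mt-Nd4l, were at 13.6 to 56.2 CPM per kilobase. The ranges over libraries of the inside and the outside genes did not overlap.

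The tRNA genes showed the same border, though those inside the block are placed there by position alone. No tRNA gene, inside or outside, shared a stretch of 50 bases with an annotated nuclear transcript. Of the 5 tRNA genes inside the block, mt-Tr reached 10.6 and mt-Ts1 3.73 CPM per kilobase, and mt-Td, mt-Tk and mt-Tg had 0 to 2 counts in every library. The 17 tRNA genes outside it were at 29.8 (mt-Tt) to 3679 (mt-Tp) CPM per kilobase. For a library at 0, up to 3 counts are allowed by counting error, which is 0.0858 to 0.137 CPM depending on the library. These 3 tRNA genes, with 2, 1 and 9 counts over all libraries, were the only mitochondrial rows too low for a test, so that 32 of the 35 were tested. mt-Ts1 passed the filter on low counts only through the HCN4F-Sham group, where it had 6 to 13 counts against 2 to 6 in WT-Sham, so its differences from that group are conditioned on the filter and no weight is put on them.

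**Figure D1:**
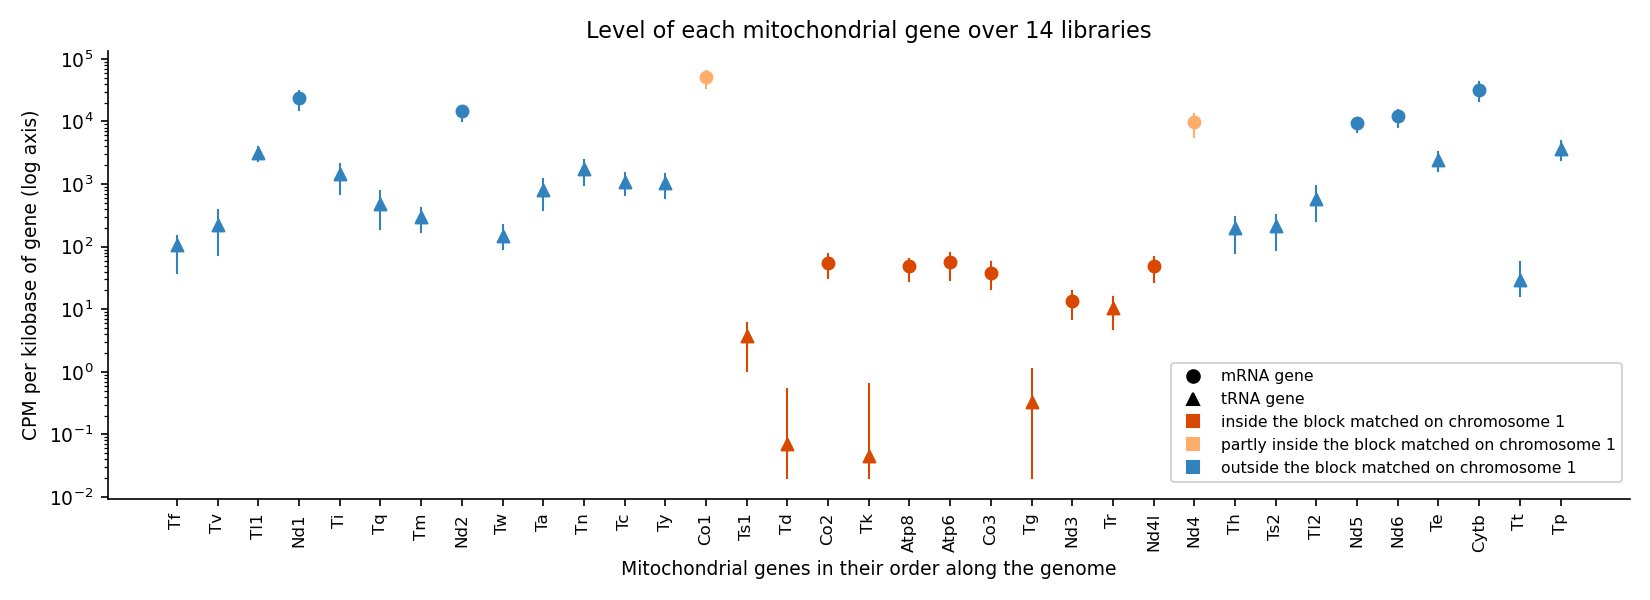
Level of the 35 mitochondrial genes in CPM per kilobase of gene (log axis), in their order along the genome. Points are means over 14 libraries and lines run from the lowest to the highest library (values under 0.02 drawn at 0.02). The 11 genes from mt-Ts1 to mt-Nd4l, inside the block by position, sit below all mRNA genes outside it.

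For the 5 genes fully inside the block that have an annotated counterpart, the nuclear counterparts were counted at a level similar to the mitochondrial rows they match, mt-Nd3 excepted. Per library, Gm28661 had 0.735 to 1.07 counts for each count on mt-Co2, Gm28437 had 0.926 to 1.74 for each on mt-Co3, Gm10925 had 0.571 to 1.02 for each on mt-Atp6, and Gm10222 had 0.998 to 2.54 for each on mt-Nd4l. Gm28438 stood apart with 20.9 to 33.1 counts for each count on mt-Nd3, that is 1813 to 5322 counts beside 72 to 187. Of all stretches of 100 bases in these mitochondrial genes, 97.6% (mt-Nd3) to 99.9% (mt-Co3) also occur in a nuclear transcript. It was 3.2% of those in mt-Nd2 and 0 of those in mt-Nd1, mt-Nd5, mt-Nd6 and mt-Cytb. The shared part did not follow the level in every gene. It was 60.8% in mt-Nd4 and 30.8% in mt-Co1, which had high levels, and 0 in mt-Atp8, at 49.2 CPM per kilobase. How reads that match both places were counted is not given in the sources used here, and which base these mice carry at position 9461 was not tested. Between genes, the counts inside the block are therefore no measure of the transcript level. Between libraries they are compared below, each gene with itself. For mt-Atp8, which lies between the counterparts of mt-Co2 and mt-Atp6 where chromosome 1 has 233 bases without an annotated gene, the nuclear sequence was not analysed here. Nor was it for the 5 tRNA genes inside the block.

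Mitochondrial transcripts made up 13.9% to 23.1% of all counts, with mt-Co1 the most counted gene of the whole table. WT-Sham hearts gave 23.1%, 19.6%, 20.9% and 20.4% of their counts to the 35 genes (mean 20.99% ± 1.49, SD, n = 4). HCN4F-Sham hearts gave 17.1%, 20.2%, 20.9% and 21.4% (19.9% ± 1.91, n = 4). The 2 WT-TAC libraries were at 18.38% and 20.03% (19.2% ± 1.16). The HCN4F-TAC libraries were at 17.3%, 13.9%, 18.6% and 16.8% (16.7% ± 1.98, n = 4). In HCN4F hearts 3 of the 4 Sham libraries lay above every TAC library, and the fourth lay within their range. The WT-TAC libraries were within or below the WT-Sham range. In whole tissue, fewer cells of a type and less RNA per cell cannot be told apart. The share is a sum over the members and was not tested.

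The split by complex followed the total. It rests on the genes outside or partly inside the block: complex IV is in effect mt-Co1 alone, since mt-Co2 and mt-Co3 lie inside, and in complex I mt-Nd3 and mt-Nd4l lie inside. Complex I mRNAs took 8.10% ± 0.575 of all counts in WT-Sham, 7.41% ± 0.435 in WT-TAC, 7.87% ± 0.548 in HCN4F-Sham and 6.52% ± 0.728 in HCN4F-TAC. Complex III (mt-Cytb) took 4.08% ± 0.376, 3.50% ± 0.271, 3.72% ± 0.413 and 3.16% ± 0.379 in the same order. Complex IV took 8.66% ± 0.534, 8.15% ± 0.456, 8.18% ± 0.976 and 6.88% ± 0.903. The 2 genes of complex V, both inside the block, were at 0.00364% to 0.00576% of the counts on average. The 22 tRNA genes took 0.0833% to 0.148% of a library, with 0.0833% to 0.112% in HCN4F-TAC below the 0.113% to 0.148% of HCN4F-Sham, by a narrow margin.

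**Figure D2:**
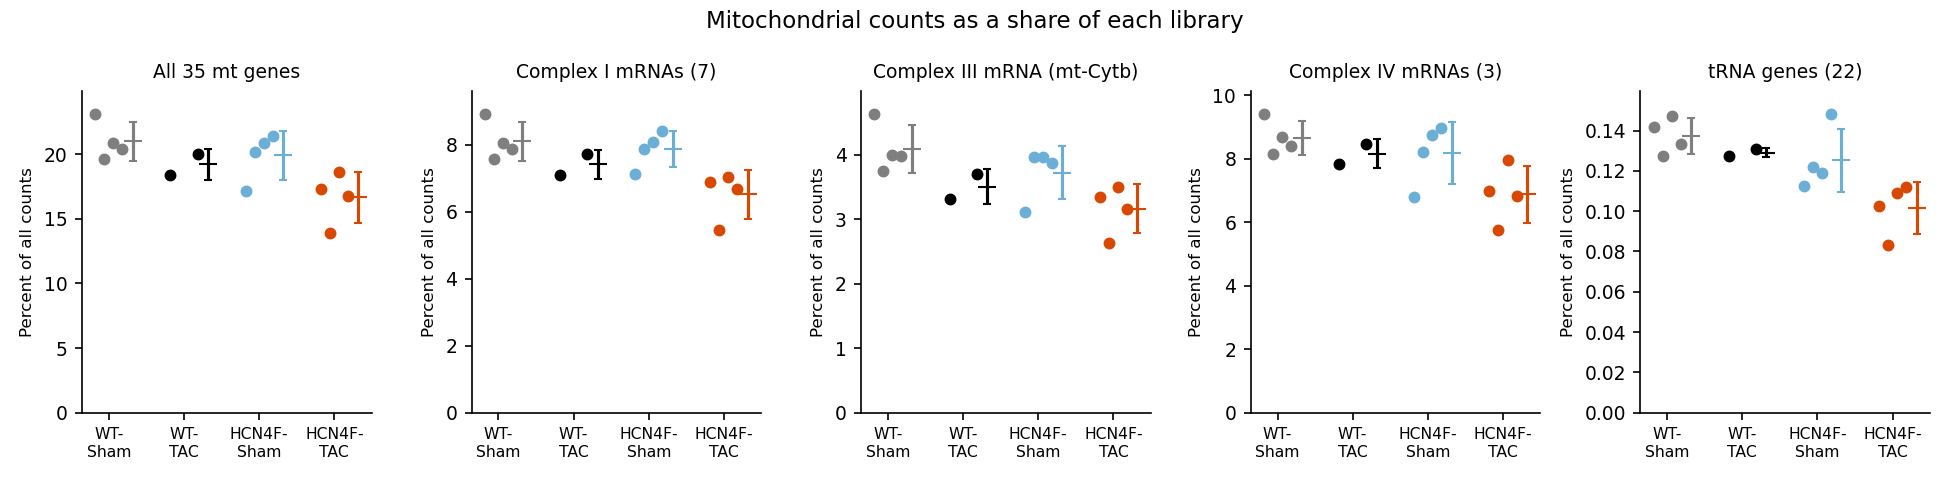
Counts on mitochondrial genes as a percent of all counts in each library, for all 35 genes and for the mRNAs of complexes I, III and IV and the tRNA genes. Points are libraries and the bar beside them is the mean with its SD (n = 4, but n = 2 in WT-TAC); HCN4F-TAC holds the lowest library in each panel, at 13.9% for all genes.

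Within the pool of mitochondrial mRNA the proportions moved little. mt-Co1, the catalytic subunit of complex IV, took 39.9% to 43.0% of the mRNA counts in all 14 libraries. mt-Cytb took 18.2% to 20.2%, mt-Nd1 10.96% to 12.99%, mt-Nd5 7.85% to 10.2%, mt-Nd2 7.30% to 8.72%, mt-Nd4 6.14% to 7.63% and mt-Nd6 3.00% to 4.22%. The 6 genes inside the block together took 0.0555% to 0.0791%. Complex I held 38.8% to 38.9% of the pool in every WT library and 38.1% to 41.8% in the HCN4F libraries. Among single genes, mt-Nd5 was at 8.33% to 8.97% in WT-Sham and at 10.04% and 10.23% in WT-TAC, while mt-Nd4 was at 7.16% to 7.63% and at 6.14% in both WT-TAC libraries. For both genes the WT ranges were apart; in HCN4F hearts they overlapped (mt-Nd5 7.85% to 9.47% in Sham and 9.26% to 9.90% in TAC, mt-Nd4 6.58% to 7.63% and 6.20% to 7.36%). These proportions were not tested.

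Several facts of the whole series bear on what follows. Depth was 22309914 to 35210939 counts per library. The left ventricular label held against the marker genes: the summed level of 10 cardiomyocyte markers was 75250 to 101500 CPM, while the atrial light chain Myl7 was at 0 to 0.694 CPM in 13 libraries. HCN4F-TAC 2 stood apart with 9.91 CPM of Myl7 and 3.79 CPM of Sln (at most 0.285 elsewhere), and it also had the lowest mitochondrial share. The 5 atrial markers, of which Nppa makes up nearly all, summed to 412 to 1862 CPM in HCN4F-TAC and 70.3 to 136 in HCN4F-Sham. The sum was 197 and 246 CPM in WT-TAC and 82.4 to 183 in WT-Sham, and 1 of the 3 tested rose in HCN4F hearts. The paper reports Nppa as a hypertrophy marker that rose after TAC in both genotypes, so this sum is not read as a measure of atrial tissue. The summed cardiomyocyte markers were lower in HCN4F-TAC (75250 to 85740 CPM) than in HCN4F-Sham (90090 to 98700) and lower in WT-TAC (95440 and 96000) than in WT-Sham (100200 to 101500). Of these 10 markers 4 fell and 1, Actc1, rose in HCN4F hearts, and 2 fell in WT hearts. The 6 fibroblast markers summed to 714 to 1150 CPM in HCN4F-TAC and 584 to 747 CPM in HCN4F-Sham, and 3 of them rose; in WT hearts they were at 553 to 651 CPM after TAC and 599 to 613 CPM after Sham. The summed level of 3 RNAs retained in the nucleus, mainly Malat1, was 933 and 1093 CPM in WT-TAC and 1277 to 2238 in WT-Sham, without overlap, and 561 (HCN4F-TAC 2) to 1241 CPM in HCN4F-TAC and 1113 to 1656 in HCN4F-Sham, with overlap; none of the 3 passed. No endothelial, macrophage, mural or erythroid marker passed in any of the 4 group comparisons. In WT hearts the macrophage sum was 122.6 and 125.8 CPM after TAC and 130.0 to 151.9 after Sham, without overlap. The erythroid sum was 88.2 and 99.95 CPM after TAC and 101.2 to 220.6 after Sham, also without overlap. It was highest in HCN4F-TAC 2, at 364.3 CPM. The endothelial and mural sums overlapped in WT hearts. Of 5 adipocyte markers only Cfd was tested, and it fell in HCN4F hearts; their sum was 0 to 0.285 CPM in HCN4F-TAC and 0.547 to 1.084 CPM in HCN4F-Sham, without overlap. The part of these differences in the results below was not tested.

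In HCN4F hearts, with 4 libraries in each group, TAC was compared with Sham. Of the 32 tested genes 16 fell and none rose at an adjusted p under 0.05 (edgeR quasi-likelihood test, Benjamini-Hochberg over 15292 genes), where 6.42% of all tested genes fell, and 13.6% passed in either direction. They were 10 of the 13 mRNAs and 6 of the 19 tested tRNA genes. By the threshold of the study, which also asks for a log2 fold change beyond 1, only the tRNA gene mt-Tt was called, with 2.75% of all tested genes called. Leaving aside mt-Ts1, all 31 log2 fold changes were below 0, from -1.27 to -0.14 with a median of -0.42, where the median over all tested genes was -0.01. Without HCN4F-TAC 2, the library with atrial transcripts, 8 genes passed, and without HCN4F-Sham 4 it was 9. When the 2 HCN4F groups were fitted alone 10 passed. The shares of all tested genes in these other fits are not given here.

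In complex I, which takes electrons from NADH, 5 of 7 mRNAs fell. mt-Nd1 was at 23433, 26352, 22711 and 25122 CPM in HCN4F-Sham and at 19252, 14629, 20204 and 19131 CPM in HCN4F-TAC. No TAC library reached a Sham library, and the level fell by 25.0% (log2 fold change -0.42, SE 0.10, adjusted p = 0.0120). mt-Nd6, the only mRNA gene on the minus strand, was at 7619, 6392, 6947 and 8024 CPM and, after TAC, at 6096, 4276, 5524 and 5594 CPM. Here too the groups were apart, with a log2 fold change of -0.43 (SE 0.10, adjusted p = 0.0104). Its annotation overlaps mt-Nd5 on the other strand by 14 bases. Both strands are transcribed into long precursors, and the use of strand in counting is not given in the sources used here. Whether the counts on this row come from the minus strand alone was not tested.

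mt-Nd3 had the largest fall among the mRNAs. It was at 6.06, 6.84, 4.88 and 4.95 CPM in HCN4F-Sham and at 3.44, 2.44, 2.93 and 4.15 CPM in HCN4F-TAC. The groups did not overlap, and the log2 fold change was -0.81 (SE 0.17, adjusted p = 0.00445). These values come from the 72 to 187 counts that its row received; the counterpart Gm28438 fell as well, from 102 to 167 CPM to 61.7 to 114 CPM (log2 fold change -0.70, SE 0.20, adjusted p = 0.0369). mt-Nd2 and mt-Nd4 fell by 0.34 and 0.39 on the log2 scale (adjusted p = 0.0288 and 0.0357), and each passed in 18 of 24 alternative analyses. mt-Nd5 (-0.23, SE 0.10, adjusted p = 0.157) and mt-Nd4l (-0.39, SE 0.23, adjusted p = 0.281) did not pass.

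Complex III and complex IV pass the electrons on to oxygen. mt-Cytb, the only mitochondrial subunit of complex III, was at 32911, 40285, 39455 and 38952 CPM in HCN4F-Sham and at 32435, 24006, 33871 and 31320 CPM in HCN4F-TAC. HCN4F-Sham 1 lay within the TAC range, and the difference of -0.32 (SE 0.11) missed the threshold at an adjusted p of 0.0627. All 3 genes of complex IV fell. mt-Co1 was at 71910, 83581, 87090 and 90197 CPM and, after TAC, at 67473, 52556, 77123 and 67531 CPM. Its groups overlapped, and the fall of 0.33 on the log2 scale (SE 0.11) passed by a narrow margin at an adjusted p of 0.0495.

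mt-Co3 was at 29.9, 33.0, 33.1 and 32.4 CPM in HCN4F-Sham and at 20.5, 16.4, 25.9 and 22.2 CPM in HCN4F-TAC. Its groups lay apart (log2 fold change -0.60, SE 0.13, adjusted p = 0.00614), as did those of mt-Co2 (-0.48, SE 0.13, adjusted p = 0.0196). In complex V, the ATP synthase, mt-Atp6 (-0.54, SE 0.17, adjusted p = 0.0481) and mt-Atp8 (-0.49, SE 0.15, adjusted p = 0.0315) fell, and in both the groups overlapped. Over the 24 alternative analyses mt-Atp6 passed in 10, mt-Atp8 in 16, mt-Co1 in 8 and mt-Co2 in 21; of the tRNA genes below, mt-Th passed in 20 and mt-Tw in 22. mt-Co2, mt-Co3, mt-Atp6 and mt-Atp8 lie inside the block, and their fold changes describe the counts on these rows. Of the 7 nuclear counterparts 6 also fell, beside 6.42% of all tested genes, by 0.42 (Gm10222) to 0.70 (Gm28438) on the log2 scale. Gm28439, which matches mt-Nd4, was at -0.36 (SE 0.15, adjusted p = 0.122). Whether mitochondrial reads were counted on the nuclear rows was not tested.

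**Figure D3:**
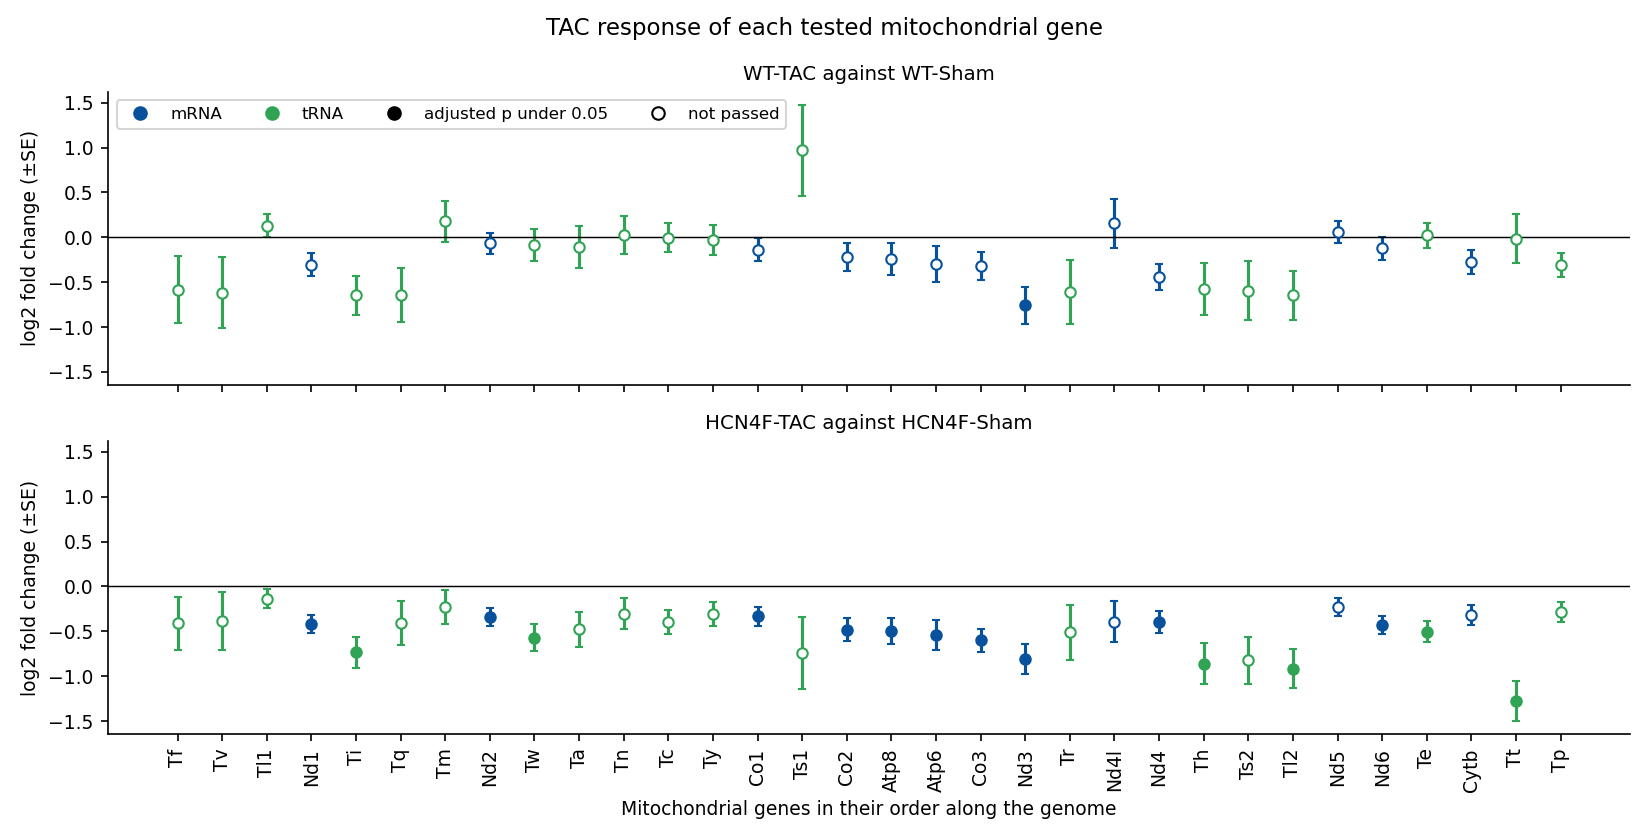
Log2 fold change of TAC against Sham with its SE for the 32 tested mitochondrial genes in genome order, in WT hearts (top) and HCN4F hearts (bottom). Filled points passed an adjusted p under 0.05, 1 gene in WT and 16 in HCN4F; in HCN4F the 31 points other than mt-Ts1, which is conditioned on the filter, lie below 0.

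Among the tRNA genes outside the block, mt-Tt and a run of 3 neighbours had the log2 fold changes furthest below 0, though 1 of the neighbours, mt-Ts2, did not pass. Their sequences are shown with the anticodon, the triplet that reads the codon, in capitals. mt-Th (chrM:11546-11612), mt-Ts2 (chrM:11613-11671) and mt-Tl2 (chrM:11671-11741), for histidine, serine and leucine, follow each other without a gap between mt-Nd4 and mt-Nd5, and mt-Tt (chrM:15289-15355), for threonine, follows mt-Cytb. All are on the plus strand.

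mt-Th: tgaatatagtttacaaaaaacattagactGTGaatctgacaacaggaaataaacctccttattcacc
mt-Ts2: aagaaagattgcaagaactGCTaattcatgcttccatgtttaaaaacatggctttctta
mt-Tl2: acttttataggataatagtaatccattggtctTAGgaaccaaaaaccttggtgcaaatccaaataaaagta
mt-Tt: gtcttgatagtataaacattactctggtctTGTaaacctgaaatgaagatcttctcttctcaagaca

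mt-Tt was at 3.24, 3.83, 2.42 and 3.11 CPM in HCN4F-Sham and at 1.41, 1.09, 1.13 and 1.59 CPM in HCN4F-TAC. Every TAC library lay below every Sham library, and the level fell by 58.7% (log2 fold change -1.27, SE 0.22, adjusted p = 0.00132). It is the lowest tRNA gene outside the block, and the values rest on 67 to 103 counts per Sham library and 32 to 39 per TAC library. In WT hearts it was at 2.07, 1.67, 1.38 and 1.73 CPM after Sham and at 1.11 and 2.20 CPM after TAC, which overlap (adjusted p = 0.984). Thus the HCN4F-Sham libraries were the high ones, above all 10 others.

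mt-Tl2 was at 65.4, 63.2, 46.1 and 44.8 CPM in HCN4F-Sham and at 29.3, 27.4, 18.4 and 41.4 CPM in HCN4F-TAC. mt-Th was at 18.8, 19.8, 16.9 and 15.7 CPM and, after TAC, at 11.7, 7.997, 5.33 and 14.3 CPM. For both genes the groups were apart, with log2 fold changes of -0.91 (SE 0.22, adjusted p = 0.0142) and -0.86 (SE 0.23, adjusted p = 0.0231). Their neighbour mt-Ts2 was at 18.5, 19.2, 14.8 and 15.9 CPM and, after TAC, at 8.83, 8.46, 5.19 and 16.3 CPM, and its log2 fold change of -0.82 (SE 0.26) had an adjusted p of 0.0556. In all 3 genes HCN4F-TAC 4 was the highest TAC library and HCN4F-TAC 3 the lowest. Beside this, 9 RNAs without a poly(A) tail summed to 172 CPM in HCN4F-TAC 4, to 169, 142 and 128 CPM in HCN4F-Sham 1, 2 and 4, and to 44.4 to 83.8 CPM in the other 10 libraries. HCN4F-Sham 4, one of these rich libraries, had the lowest mt-Tl2 and mt-Th of its group. The part of this in the tRNA values was not tested.

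The other tRNA genes that fell were mt-Ti for isoleucine, mt-Tw for tryptophan and mt-Te for glutamate. mt-Ti was at 129, 111, 72.3 and 123 CPM in HCN4F-Sham and at 65.7, 47.6, 71.9 and 77.0 CPM in HCN4F-TAC, with HCN4F-Sham 3 inside the TAC range (log2 fold change -0.73, SE 0.17, adjusted p = 0.0120). mt-Te was at 155, 178, 213 and 227 CPM and, after TAC, at 136, 112, 152 and 146 CPM, with no overlap (-0.50, SE 0.12, adjusted p = 0.00972). mt-Tw fell by 0.57 on the log2 scale (SE 0.15, adjusted p = 0.0181). The other 12 tested tRNA genes, leaving aside mt-Ts2, did not pass; leaving aside also mt-Ts1, their log2 fold changes were from -0.51 (mt-Tr) to -0.14 (mt-Tl1). Among them were mt-Tp and mt-Tl1, the 2 most counted tRNA genes, with means of 246 and 237 CPM over the 14 libraries.

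**Figure D4:**
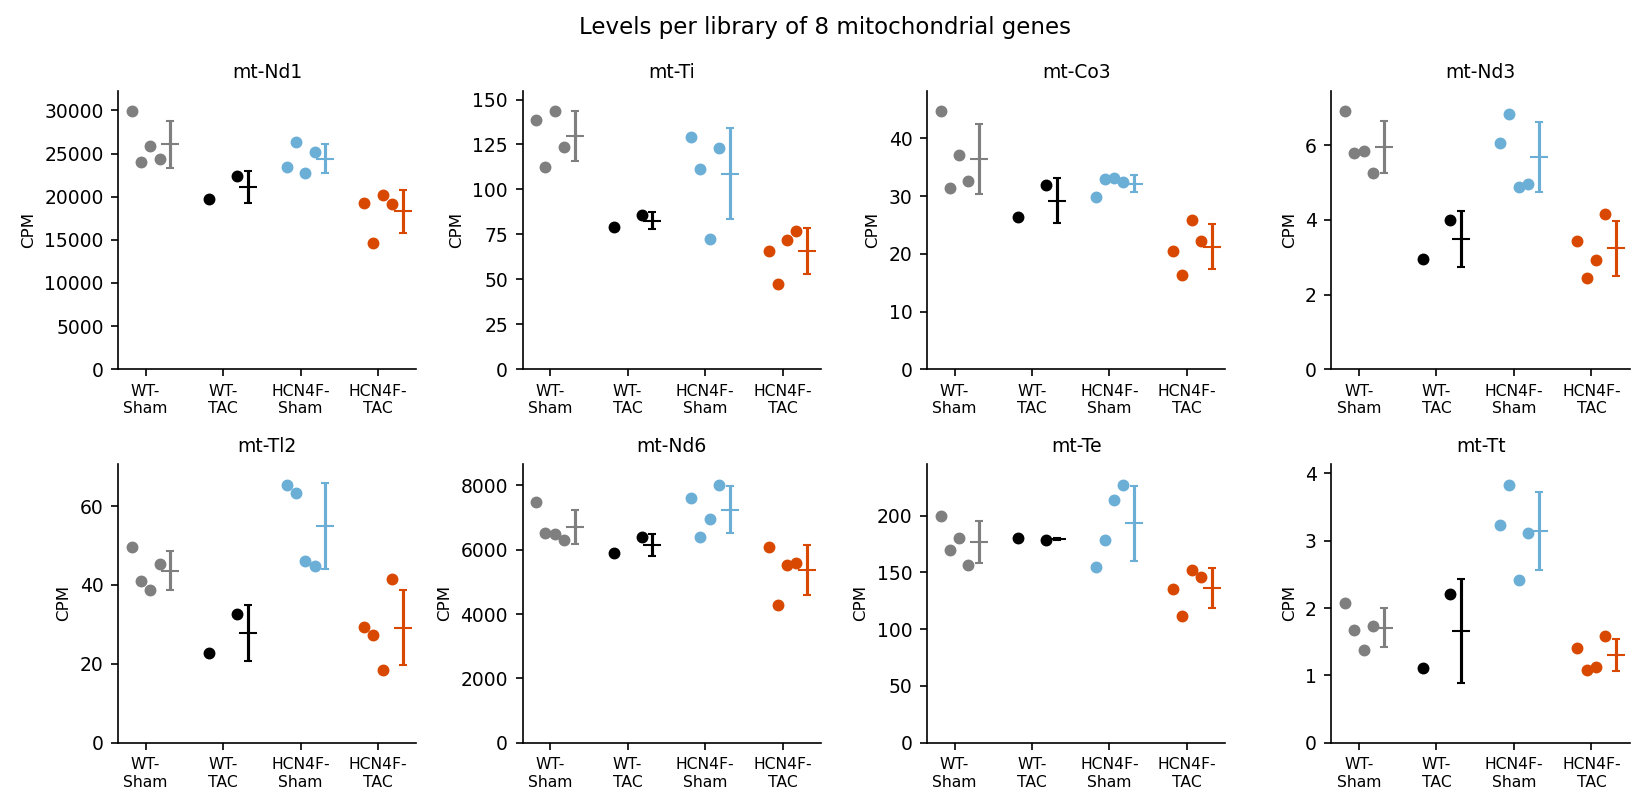
CPM per library (linear axes from 0) of the 8 mitochondrial genes that passed an adjusted p under 0.05 in HCN4F hearts in every alternative analysis. Points are libraries and the bar beside them is the mean with its SD (n = 4, but n = 2 in WT-TAC); for mt-Tt the HCN4F-Sham libraries, at 2.42 to 3.83 CPM, lie above all others.

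In WT hearts, with 2 TAC libraries, 1 of the 32 genes fell and none rose at an adjusted p under 0.05, where 1.62% of all tested genes fell and 4.54% passed in either direction. By the threshold of the study none was called, against 0.706% of all tested genes; 6 genes had an unadjusted p under 0.05, beside 22% of all tested genes, and DESeq2 called none. Of the 32 log2 fold changes 25 were below 0, with a median of -0.23 beside -0.02 over all tested genes. The gene that fell was mt-Nd3, at 6.91, 5.80, 5.85 and 5.26 CPM after Sham and at 2.96 and 4.00 CPM after TAC, without overlap (log2 fold change -0.76, SE 0.21, adjusted p = 0.0458). This call was lost without any 1 of the 6 WT libraries, without HCN4F-Sham 4 or HCN4F-TAC 1, and with the replicate number as a block.

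Other genes in WT hearts were lower without passing. mt-Ti was at 139, 113, 144 and 124 CPM after Sham and at 79.4 and 86.0 CPM after TAC, which do not overlap (log2 fold change -0.65, SE 0.21, adjusted p = 0.0964). mt-Tl2 (-0.65, SE 0.27, adjusted p = 0.182), mt-Th (-0.58, SE 0.29, adjusted p = 0.257) and mt-Ts2 (-0.59, SE 0.33, adjusted p = 0.317) were lower as a run, again without overlap and without passing. They depended on the WT-TAC library: without WT-TAC 2 they were -0.41, -0.38 and -0.34, and without WT-TAC 3 -0.94, -0.82 and -0.93. Among the abundant mRNAs, mt-Nd4 was at -0.44 (SE 0.15, adjusted p = 0.0923) and mt-Nd1 at -0.30 (SE 0.13, adjusted p = 0.167). mt-Cytb was at -0.27 (SE 0.13, adjusted p = 0.252) and mt-Co1 at -0.14 (SE 0.13, adjusted p = 0.573). When 1 library was left out, mt-Nd4 ran from -0.53 to -0.36 and mt-Nd1 from -0.40 to -0.21. In the same way mt-Cytb ran from -0.38 to -0.17 and mt-Co1 from -0.22 to -0.06. The number of genes that passed in WT hearts depended on the fit: it was 3 with DESeq2 on all groups, 6 with edgeR and 9 with DESeq2 on the WT groups alone. The shares of all tested genes given above belong to the main fit, and those of the other fits are not given here.

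The TAC responses of the genotypes were not shown to differ. The genotype by surgery interaction passed for 0 of the 32 genes at an adjusted p under 0.05 and for 0% of all tested genes with edgeR, and for none of the 32 with DESeq2. At an unadjusted p under 0.05 it was 3 of the 32 and 1418 of the 15292 genes. Of these 3, mt-Tt had an interaction of -1.26 (SE 0.35, adjusted p = 0.404), which was -0.65 without WT-TAC 3, and the others were mt-Te and mt-Ts1, the latter conditioned on the filter. For abundant mRNAs the interaction was -0.11 (SE 0.16) for mt-Nd1 and -0.19 (SE 0.17) for mt-Co1, so that for both the interaction was close to its SE. When 1 library was left out it ran from -0.20 to -0.02 for mt-Nd1 and from -0.28 to -0.11 for mt-Co1.

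Between genotypes after Sham, no mitochondrial gene passed at an adjusted p under 0.05 with edgeR (0 of 32, with 5 at an unadjusted p under 0.05 beside 15.2% of all tested genes), where 0.471% of all tested genes did, and none was called by the threshold of the study, against 0.209%. The median log2 fold change of HCN4F-Sham against WT-Sham was -0.10. The smallest adjusted p was that of mt-Tt, at 2.42 to 3.83 CPM in HCN4F-Sham and 1.38 to 2.07 CPM in WT-Sham, without overlap (log2 fold change 0.87, SE 0.21, adjusted p = 0.0714). With DESeq2 on all groups it passed (adjusted p = 0.0128), as the only mitochondrial gene. The 5 genes at an unadjusted p under 0.05 include mt-Ts1, which is conditioned on the filter. The abundant mRNAs mt-Nd1 (-0.09, SE 0.10), mt-Cytb (-0.15, SE 0.11) and mt-Co1 (-0.10, SE 0.11) had adjusted p-values of 0.546 to 0.706. Beside these values, the 9 RNAs without a poly(A) tail summed to 83.8 to 169 CPM in HCN4F-Sham and 44.4 to 72.2 CPM in WT-Sham, and Gm42418, which overlaps an rRNA repeat, took 5.46% to 9.04% and 4.24% to 6.25% of the counts. Their part in these results was not tested.

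Between genotypes after TAC, 0 of 32 genes passed with edgeR, where 0.111% of all tested genes did, and none was called by the threshold of the study, against 0.0719%. At an unadjusted p under 0.05 it was 12 of the 32 genes and 12.5% of all tested genes, and 28 of 32 log2 fold changes were below 0 (median -0.33). The smallest adjusted p-values were those of mt-Tc and mt-Ty, the adjacent tRNA genes for cysteine and tyrosine on the minus strand. mt-Ty was at 83.3 and 84.2 CPM in WT-TAC and at 48.7, 40.9, 62.7 and 61.9 CPM in HCN4F-TAC. mt-Tc was at 88.2 and 79.8 CPM and at 48.5, 43.5, 63.2 and 61.0 CPM. Both had no overlap, with log2 fold changes of -0.65 (SE 0.16, adjusted p = 0.124) and -0.64 (SE 0.16, adjusted p = 0.121), and with DESeq2 on all groups these 2 genes passed (adjusted p = 0.0170 for each). Without HCN4F-TAC 3 it was 5 genes with edgeR. The shares of all tested genes in these other fits are not given here. Among mRNAs, mt-Nd5 was at -0.33 (SE 0.12, adjusted p = 0.277), mt-Co2 at -0.43 (SE 0.15, adjusted p = 0.255) and mt-Co3 at -0.46 (SE 0.15, adjusted p = 0.233). Beside these values, the summed cardiomyocyte markers were at 75250 to 85740 CPM in HCN4F-TAC and 95440 and 96000 in WT-TAC. The summed fibroblast markers were at 714 to 1150 and at 553 and 651 CPM. Neither overlapped, and none of these markers passed. Their part in these results was not tested in this comparison either.

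Of 80 nuclear subunit genes of complexes I to V, all tested, 64 fell and none rose in HCN4F hearts and 16 fell and none rose in WT hearts, beside the 6.42% and 1.62% of all tested genes given above. With DESeq2 on all groups 35 passed in WT hearts in place of 16, and the share of all tested genes in that fit is not given here. The median log2 fold change was -0.32 in HCN4F and -0.31 in WT hearts, and none of the 80 was called by the threshold of the study. The mitochondrial mRNAs had medians of -0.42 and -0.24, which include the 6 genes inside the block. In HCN4F hearts those 6 were from -0.81 to -0.39 and the other mRNAs from -0.43 to -0.23. In WT hearts the 6 were from -0.76 to 0.15 and the other mRNAs from -0.44 to 0.06. Complex V had 16 of 17 nuclear genes fall in HCN4F hearts, complex I 29 of 36, complex III 7 of 9, complex IV 10 of 14 and complex II, which has no mitochondrial subunit, 2 of 4. In WT hearts these were 4, 9, 0, 3 and 0. The comparisons use different Sham groups. In neither genotype contrast did a nuclear gene of the list pass with edgeR (8 of 80 at an unadjusted p under 0.05 in each, beside 15.2% of all tested genes after Sham and 12.5% after TAC).

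Cox7a1, the heart and skeletal muscle form of a complex IV subunit, had the smallest adjusted p of the list in both genotypes. It was at 657, 698, 670 and 602 CPM in HCN4F-Sham and at 388, 411, 446 and 377 CPM in HCN4F-TAC (log2 fold change -0.70, SE 0.07, adjusted p = 3.02e-05). In WT hearts it was at 765, 682, 759 and 727 CPM after Sham and at 444 and 474 CPM after TAC (-0.68, SE 0.09, adjusted p = 0.00168). Neither pair of groups overlapped. Ndufa5, an accessory subunit of complex I, fell by 0.46 on the log2 scale in HCN4F and by 0.42 in WT hearts (adjusted p = 0.000831 and 0.0238). Atp5e, the epsilon subunit of the ATP synthase, fell in HCN4F hearts (-0.66, SE 0.11, adjusted p = 0.00132); in WT hearts it was at 346 to 404 CPM after Sham and 265 and 282 CPM after TAC, without overlap and without passing (-0.42, SE 0.14, adjusted p = 0.0950). Ndufa3 of complex I fell in WT hearts (-0.45, SE 0.10, adjusted p = 0.0195) and in HCN4F hearts (-0.41, SE 0.08, adjusted p = 0.00255).

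**Figure D5:**
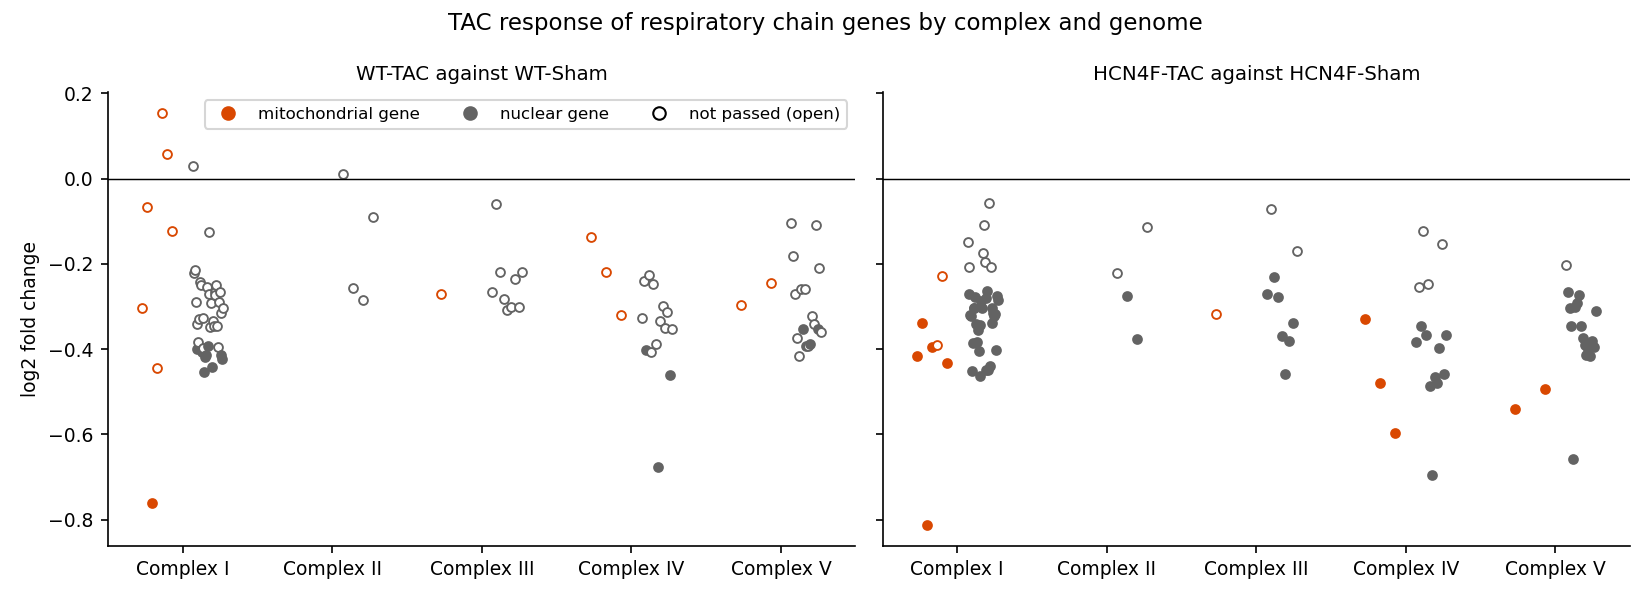
Log2 fold change of TAC against Sham for mitochondrial (orange) and nuclear (grey) genes of each respiratory complex, in WT hearts (left) and HCN4F hearts (right). Each point is a gene, filled where its adjusted p was under 0.05; in HCN4F hearts all 80 nuclear and all 13 mitochondrial genes lie below 0.

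A second list held 40 nuclear genes for copying and reading the mitochondrial genome. Among these, which include the RNA polymerase, its partner factors, the replication proteins, the tRNA-cutting enzymes and the mRNA-stabilising proteins, 1 fell and 2 rose in HCN4F hearts, beside the 13.6% of all tested genes that passed in either direction, and the median log2 fold change was -0.04 beside -0.01 over all tested genes. Hsd17b10, a subunit of the enzyme that cuts the 5′ ends of mitochondrial tRNAs, was at 155, 139, 108 and 118 CPM in HCN4F-Sham and at 96.8, 104, 111 and 96.1 CPM in HCN4F-TAC, with an overlap (-0.35, SE 0.09, adjusted p = 0.0196). Rexo2, an exonuclease that removes short RNA fragments, rose by 0.24 on the log2 scale (SE 0.07, adjusted p = 0.0283), and Trub2, a pseudouridine synthase, rose by 0.36 (SE 0.11, adjusted p = 0.0342). In WT hearts 1 of the 40 fell and none rose, where 4.54% of all tested genes passed in either direction. It was the mitochondrial topoisomerase Top1mt, at 8.13, 6.60, 6.08 and 7.38 CPM after Sham and at 4.72 and 4.46 CPM after TAC (-0.62, SE 0.15, adjusted p = 0.0309). Between genotypes none of the 40 passed with edgeR after Sham (8 at an unadjusted p under 0.05, beside 15.2% of all tested genes) or after TAC (6, beside 12.5%), and with DESeq2 it was 0 and 1.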

How the data were processed

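RNA of the left ventricle was extracted with a fibrous tissue kit, selected for poly(A) tails and sequenced on an Illumina platform. The authors deposited raw counts per gene. The labels name the build GRCm38; aligner, counting program, treatment of reads with several matches and use of strand are not given in the sources used here. The paper describes 16 samples, 4 per group; 14 were used here, with WT-TAC replicates 2 and 3, and 2 further columns that match no sample were not used.

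The members and gene lists were chosen with earlier results of these data known. Genes were kept with filterByExpr (15292 of 49315), scaled with TMM and tested in edgeR 4.0.16 (R 4.3.3) in 1 fit over all groups with robust quasi-likelihood estimation and Benjamini-Hochberg adjustment. Calls needed both an adjusted p under 0.05 and a log2 fold change beyond 1 in size, the threshold of the study, which used DESeq2; counts at the adjusted p alone are given beside it, and the interaction uses the adjusted p alone. SEs are the log2 fold change over the root of its F statistic. Shares are raw counts over all counts, and shares and list counts carry no test. Named were all mitochondrial rows, the list genes called in a comparison or else up to 3 with the smallest adjusted p, and marker genes for their level; the nuclear counterparts, Gm42418 and Gm23935 were named after their values were seen.

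Positions, sequences and overlaps come from GENCODE M21 (GRCm38), which holds 99.3% of the table's identifiers. Nuclear matches were sought among its transcripts, as shared stretches of 50 and 100 bases and as alignments of at least 100 bases with at least 99% identity for the block.

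The test was checked on simulated counts with known changes. Alternatives were DESeq2 1.42.0 on all samples or on 1 pair of groups, edgeR on such a pair, DESeq2 size factors, library size alone, scaling without the mitochondrial rows, other filters, non-robust estimation, the adjusted p alone, a replicate block, other denominators of the share and leaving out each replicate. The denominator without Gm42418 and Gm23935 was chosen after seeing the data. Depth was 22309914 to 35210939 counts per library; limits from 3 counts cover counting error only. Figures were drawn with matplotlib in Python.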

Additional observations from a re-analysis of the deposited data

Results flagged for a closer look

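Among 102 groups of 4 values (32 tested genes and 2 shares in 3 groups) the lowest or highest library was set apart from the other 3 by more than Dixon's 95% critical value in 2 cases, where chance gives about 5.1 (1 in 20). mt-Tq, the tRNA gene for glutamine on the minus strand, was at 13.7 CPM in HCN4F-TAC 2 and at 26.9 CPM or more in the other HCN4F-TAC libraries. HCN4F-TAC 2 is the library with Myl7 and Sln transcripts and the lowest mitochondrial share. mt-Tr, the tRNA gene for arginine that lies inside the block by position, was at 0.489 CPM in HCN4F-Sham 1. It was at 0.845 CPM or more in the other HCN4F-Sham libraries, on 10 to 32 counts over all libraries.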

How the results depend on the processing

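Of the 16 genes that passed in HCN4F hearts, 8 (mt-Nd1, mt-Nd3, mt-Nd6, mt-Co3, mt-Ti, mt-Tl2, mt-Te, mt-Tt) passed in all 24 alternative fits, and no log2 fold change given for a mitochondrial gene changed sign in any alternative. The number that passed was 16 (10 with edgeR on the compared groups; 8 to 19 when each replicate was left out, lowest without HCN4F-TAC 2); called were 1 (16 by the adjusted p alone; 1 to 4 when each replicate was left out, highest without HCN4F-TAC 4). In WT hearts it was 1 (3 with DESeq2 on all groups, 9 with DESeq2 and 6 with edgeR on the compared groups, 0 with the replicate block; 0 to 2 when each replicate was left out), and called were 0 (1 by the adjusted p alone). Between Sham groups it was 0 (1 with DESeq2 on all groups, 2 with DESeq2 and 1 with edgeR on the compared groups, 1 without a filter; 0 to 1 when each replicate was left out), with mt-Tt passing in each of these, and between TAC groups 0 (2 with either DESeq2 fit, 1 without a filter; 0 to 5 when each replicate was left out). Nuclear subunit genes that passed were 35 in place of 16 in WT hearts and 1 in place of 0 between Sham groups with DESeq2 on all groups, and genes of mitochondrial genome expression 2 in place of 1 in WT hearts and 1 in place of 0 between TAC groups. The cause of these differences was not tested, and the shares of all tested genes in the alternatives are not given here. The difference in the mitochondrial share between HCN4F-TAC and HCN4F-Sham was -3.24 percentage points. It was -4.85 to -3.21 with other denominators and -4.16 to -2.32 when each replicate was left out. The -4.85 is per 100 counts of other genes (means 20.05 and 24.91), a larger scale than a share of all counts.

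Deviations from the group means correlated weakly between same-numbered libraries (-0.12 to 0.159). With 2 or 4 libraries per group this cannot decide whether the numbers pair the samples. With the replicate block 18 genes passed in HCN4F hearts and 0 in WT hearts. WT-TAC has 2 libraries, and where 1 is left out the other is assumed to vary like the other groups. Counts on mt-Ts1, mt-Tr and mt-Tt are few (2 to 13, 10 to 32 and 27 to 103 per library), which limits their precision.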
